A study of Mus musculus with 2 samples.

Results

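The chromatin loops at 36 genes of myometrial contraction were described in uteri at 2 stages of the estrous cycle. The members are a list of smooth muscle genes for contractile proteins, their transcription regulators, contraction receptors, ion channels and kinases, out of 21631 protein-coding genes. A loop was assigned to a gene when either end of the gene (RefSeq, GRCm38) lay inside an anchor, the 10 kb segment at each foot of a loop, or within 5 kb of it. This gave 101 of the 24131 loops listed in estrus and 95 of the 26240 listed in diestrus. Hi-C joins and sequences pieces of DNA that neighbour each other in the nucleus. One library (n = 1) came from estrus, the stage around ovulation that follows the estrogen peak, and the other (n = 1) from diestrus, when progesterone acts on the uterus. Both came from intact CD-1 mice, an outbred stock, aged 2 months and given no treatment. The labels do not say how many animals a library holds. The tissue was whole uterus, so the loops of muscle, stroma, epithelium and vessels are mixed, and fewer cells of a type cannot be told apart from weaker loops per cell. A loop list holds no expression values, so the tissue label could not be checked against marker genes.

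Uterine smooth muscle contracts when calcium entering through voltage-gated channels, or released from internal stores, binds calmodulin and activates the kinase of the myosin light chain. Oxytocin, prostaglandins and endothelin raise calcium through receptors in the muscle membrane, gap junctions of connexin 43 couple the cells, and cyclic GMP and potassium channels oppose contraction. The contractile genes are switched on by serum response factor with its coactivator myocardin.

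Loop strength is the number of contacts observed at a loop divided by the number expected from the surrounding ring of the contact map (the donut). A loop was taken as found in the other stage when a loop there had each anchor at most 10 kb from the matching one. Mutually nearest loops formed pairs, and the log2 ratio of their strengths, estrus over diestrus, was centred on the median of all pairs of the genome. Intervals are at 95% and cover counting error only. For ratios of strength the expected contacts were treated as known. With 1 library per stage, differences between the stages have no replicate check, and no test was run.

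Of the 36 genes, 29 had a loop in at least 1 stage and 7 had none. Per gene the mean was 2.81 loops in estrus and 2.64 in diestrus, against 1.14 and 1.20 over all protein-coding genes. The share without a loop was 19.4% of the members and 44.3% of all protein-coding genes. At least 4 loops in both stages were listed at 11 members (30.6%) and at 6.50% of all protein-coding genes. The median gene length was 85.6 kb for the members and 17.3 kb over all protein-coding genes, and these values were not adjusted for length. Among the 29 members with a loop, 11 had more loops in estrus, 9 had more in diestrus and 9 had equal numbers. Over all 12047 protein-coding genes with a loop, 25.6% had more in estrus and 31.5% more in diestrus. The order of the members did not hold under other assignments. With gene ends inside an anchor, 10 members had more in estrus and 10 in diestrus, and with ends within 10 kb these were 12 and 12. With anchors anywhere in the gene they were 11 and 12, and with all q-values at most 0.01 they were 10 and 12. With a diestrus list shortened to the length of the estrus list they were 13 and 6, a setting that removes loops from diestrus only. Shares over all genes are not given for these settings.

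A difference of at least 2 loops was found at 9 members. There were 6 with more in estrus, or 20.7% of the 29, where the same share over all genes with a loop was 4.29%. They were Actg2, Gja1, Itpr1, Oxtr, Pde5a and Prkg1. The other 3, Cald1, Mylk and Ptgfr, had more in diestrus, or 10.3%, where the share over all genes was 7.11%. This tally depends on the assignment: gene ends within 10 kb gave 3 in estrus and 3 in diestrus, and anchors anywhere in the gene gave 6 and 8. It was 4 in estrus and 3 in diestrus with ends inside an anchor. With all q-values at most 0.01 it was 4 and 2, and with the shortened diestrus list it was 6 and 2. The shares over all genes are not given for these other settings. Among genes with at least 4 loops over both lists, a limit chosen after the lists were seen, 6 of 22 members had at least 2 more in estrus (6.21% of all such genes) and 1 of 22 had at least 2 more in diestrus (10.4% of all such genes).

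**Figure D1:**
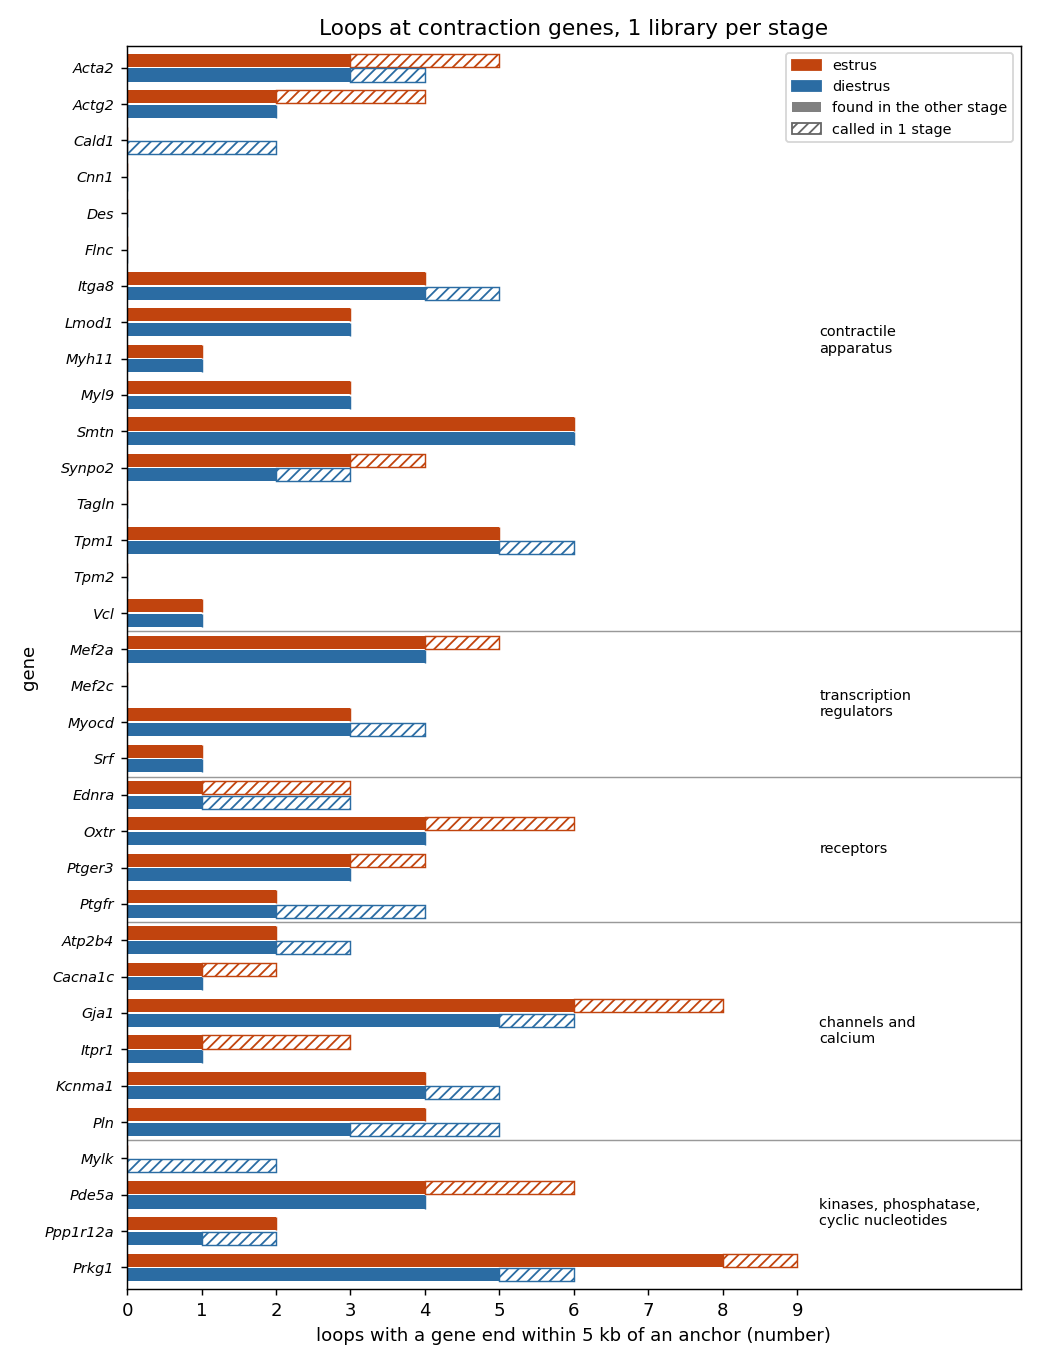
Number of loops (horizontal axis) at each gene reported here (vertical axis, grouped by role), with the estrus library above the diestrus library. Filled bars are loops found in the other stage and hatched bars are loops called in 1 stage. Prkg1 has the longest estrus bar, 9 loops, and its 6 diestrus loops are matched by Gja1, Smtn and Tpm1, and genes without a bar had no loop in either stage.

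The contractile proteins and their anchoring partners, 16 genes, had 36 loops in estrus and 36 in diestrus. Of these, 31 estrus loops were found in diestrus and 30 diestrus loops in estrus. Des (desmin, the muscle intermediate filament), Cnn1 (calponin), Tagln (transgelin), Tpm2 (a tropomyosin) and Flnc (the actin crosslinker filamin C) had no loop in either stage. With gene ends within 10 kb counted, Tagln had 0 loops in estrus and 1 in diestrus, and Flnc had 1 in estrus and 0 in diestrus.

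Acta2 encodes smooth muscle alpha-actin and lies at 34240336 to 34255585 on chromosome 19, minus strand. It had 5 loops in estrus and 4 in diestrus, of which 3 were paired. Apart from 1 estrus loop, they left from the bin that holds the 3′ end of the gene, which the gene shares with Stambpl1, and ran upstream past the promoter. The 90 kb loop to the anchor at Fas, a death receptor gene, held 226 contacts in estrus (197 to 257) and 178 in diestrus (153 to 206). Its strength was 3.79 in estrus and 2.84 in diestrus, a centred log2 ratio of 0.40 (0.11 to 0.69), which was the highest among the members. The loop of 240 kb to Ch25h and Lipa had a strength of 6.24 in estrus and 5.52 in diestrus, with a ratio of 0.16 whose interval includes 0. In estrus alone, an 80 kb loop ran downstream from the next bin with 184 contacts at 4.98 times the expected number. The nearest diestrus loop lay 40 kb away. The bin of this estrus loop lies outside the gene, near Stambpl1. With gene ends inside an anchor, Acta2 had 4 loops in each stage. In diestrus alone, a 50 kb loop to another bin at Fas held 269 contacts at 2.14 times the expected number.

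The second actin gene, Actg2 (smooth muscle gamma-actin, chromosome 6), had 4 loops in estrus and 2 in diestrus. Its 160 kb loop to the anchor at Bola3 and Tet3 was its strongest, with 519 contacts at 8.11 times the expected number in estrus and 540 contacts at 8.52 times in diestrus. The centred log2 ratio of this loop was -0.09, with an interval that includes 0. The 2 further estrus loops, of 510 kb and 60 kb, left from a neighbouring bin that lies outside the gene. They had 34 and 370 contacts at 2.77 and 2.10 times the expected number. Counting gene ends inside an anchor alone removed them and gave Actg2 2 loops in each stage. In every loop of both stages, the anchor at Actg2 was shared with Dguok.

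Smtn, the gene of the actin-binding protein smoothelin, had 6 loops in each stage, and each was found in the other. Of these, 3 ran downstream from the 3′ end, where the anchor is shared with Inpp5j and Selenom, and 3 upstream from the promoter. Strengths were 2.54 to 4.37 in estrus and 2.26 to 4.17 in diestrus. Tpm1, which encodes the thin-filament protein tropomyosin 1, had 5 loops in estrus and 6 in diestrus, all from the bin with its promoter. The strongest Tpm1 loops ran upstream over 110 kb and 170 kb. The 170 kb loop, to the adhesion gene Tln2, held 430 contacts in estrus and 473 in diestrus at 4.29 and 4.28 times the expected number. The 110 kb loop had a strength of 3.96 in estrus and 4.37 in diestrus. The diestrus loop of Tpm1 without a counterpart ran 100 kb to Rps27l at 2.31 times the expected number.

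Cald1 encodes caldesmon, which binds actin and tropomyosin. It had 0 loops in estrus and 2 in diestrus, from the 3′ end of the gene, which lies beside Agbl3. They held 219 contacts (191 to 250) over 100 kb and 63 contacts (48.4 to 80.6) over 220 kb, at 3.001 and 2.77 times the expected number. The nearest estrus loop was 150 kb away from either. With anchors anywhere in the gene, Cald1 had 3 loops in estrus and 4 in diestrus. For Lmod1 (leiomodin, an actin filament nucleator) and Myl9 (the regulatory light chain of smooth muscle myosin), 3 loops were listed in each stage and all had a counterpart. Lmod1 had 1 loop of 50 kb between both ends of the gene, with 356 contacts in estrus and 331 in diestrus. The anchors at the 3′ and 5′ ends of Lmod1 are shared with Shisa4 and Timm17a. Myh11, the smooth muscle myosin heavy chain gene, had 1 loop of 290 kb in each stage, with 84 contacts at 3.46 times the expected number in estrus and 78 contacts at 3.05 times in diestrus. The anchor at Myh11 is shared with Nde1. Vcl, which encodes the adhesion protein vinculin, had 1 loop of 60 kb within the gene, at 2.41 and 2.30 times. Itga8, an integrin gene, had 4 loops in estrus and 5 in diestrus, and its extra diestrus loop of 90 kb lay within the gene at 2.00 times the expected number.

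Synpo2, the gene of an actin-bundling protein, had 4 loops in estrus and 3 in diestrus. Its 90 kb upstream loop held 520 contacts in estrus (476 to 567) and 549 in diestrus (504 to 597). Its strength was 4.82 in estrus and 4.17 in diestrus, a centred log2 ratio of 0.19 (0.02 to 0.37). A second upstream loop of 120 kb, at 4.11 times the expected number, was listed in estrus alone, 20 kb away from the nearest diestrus loop. In diestrus alone, an upstream loop of 270 kb to Prss12 held 51 contacts at 5.26 times the expected number.

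The 4 transcription regulators had 9 loops in estrus and 9 in diestrus. Paired loops of this group were weaker in estrus in 7 of 8 cases, and their median centred log2 ratio was -0.14. Over all pairs 9699 of 19399 were weaker in estrus, and the 8 pairs come from 3 genes. Among the contractile genes, 12 of 30 pairs were weaker in estrus, and among the receptors 8 of 10. The receptor pairs come from 4 genes, some share an anchor, and only the Ptgfr pair at -0.37 had an interval below 0. Myocd, which encodes myocardin, had 3 loops in estrus and 4 in diestrus, all from the bin at 65260001 to 65270000 on chromosome 11. They held 124, 140 and 157 contacts in estrus and 191, 230 and 215 in diestrus over 240 kb, 370 kb and 410 kb. All 3 values were lower in estrus. Over all pairs of 200 to 400 kb the median ratio of contacts was 0.936, and over all pairs of 400 to 800 kb it was 0.930. Among the member pairs of these lengths, those of Myocd included, it was 0.864 (27 pairs) and 0.75 (7 pairs). The 370 kb loop had a strength of 2.94 in estrus and 3.91 in diestrus, a centred log2 ratio of -0.43 (-0.74 to -0.12). The ratios of the other Myocd loops were -0.14 and -0.21, with intervals that include 0. These 3 loops share an anchor and are no replicates of each other, and the same holds for the paired loops of Mef2a. Mef2a, a gene of the myocyte enhancer factors, had 5 loops in estrus and 4 in diestrus at strengths of 2.06 to 2.51 in estrus and 2.17 to 2.75 in diestrus. Its 4 paired loops had ratios of -0.15 to -0.07, each with an interval that includes 0. Srf had 1 loop of 90 kb in each stage, to the anchor with Klc4, Mrpl2 and Cul7, with 243 contacts at 2.27 times the expected number in estrus and 258 contacts at 2.22 times in diestrus. The anchor at Srf is shared with Cul9 and Ptk7. Mef2c had no loop by the main assignment, and 7 loops in estrus and 8 in diestrus with gene ends within 10 kb.

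Serum response factor binds the CArG box, which reads CC, then 6 bases of A or T, then GG, and is its own reverse complement in form. It was searched on both strands in RefSeq promoter windows of GRCm38.p6, from 250 bases before to 50 after each start. Windows were given for 30 of the 36 members, and among those without one are Myh11, Tagln, Actg2, Myocd and Itpr1. Of the 27025 genes with a window, which are not limited to protein-coding genes, 1.81% held the box. It was found at 3 of the 30 members with a window (10%). All 3 promoters lay within 5 kb of a loop anchor in both stages, and their stretches before the start are shown for that reason, 5′ to 3′ on the gene's strand with the boxes in capitals. A match is a description of the letters and not of a bound site.
Srf, chr17:46556175-46556284, minus strand: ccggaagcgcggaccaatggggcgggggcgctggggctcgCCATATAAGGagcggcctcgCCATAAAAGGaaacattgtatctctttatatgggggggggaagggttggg
Myl9, chr2:156775263-156775352, plus strand: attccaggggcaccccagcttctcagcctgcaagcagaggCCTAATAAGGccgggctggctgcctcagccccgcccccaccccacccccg
Vcl, chr14:20929148-20929220, plus strand: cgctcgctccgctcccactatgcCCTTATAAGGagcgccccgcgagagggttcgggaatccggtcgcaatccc
Srf had 2 boxes, which begin 82 and 62 bases before its start. The box of Myl9 begins 161 bases before the start and that of Vcl 227 bases before it. The 50 kb upstream loop of Myl9, from the anchor that holds this promoter, held 245 contacts in estrus and 257 in diestrus, at 2.44 and 2.33 times the expected number.

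The 4 contraction receptors had 15 loops in estrus and 14 in diestrus. Of these, 10 in each stage had a counterpart. Oxtr, which encodes the oxytocin receptor, lies at 112473683 to 112491035 on chromosome 6 on the minus strand, and it had 6 loops in estrus and 4 in diestrus. All 4 diestrus loops were found in estrus at the same bins. They ran both ways, 2 downstream and 2 upstream. The 80 kb downstream loop held 281 contacts in estrus (249 to 316) and 229 in diestrus (200.3 to 261). Its strength was 5.68 in estrus and 4.51 in diestrus, a centred log2 ratio of 0.32 (0.06 to 0.58). The strongest upstream loop, of 190 kb, held 245 contacts in estrus and 302 in diestrus at 5.87 and 6.21 times the expected number, a ratio of -0.10. Both estrus loops without a counterpart ran upstream from the promoter bin, over 60 kb with 287 contacts at 2.04 times the expected number and over 130 kb to the DNA repair gene Rad18 with 174 contacts at 2.73 times. Their strengths were below the median of 3.43 over all estrus loops. The excess of 2 loops was found under each of 5 other settings of the assignment and the list.

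Ptgfr, the receptor for prostaglandin F2 alpha, had 2 loops in estrus and 4 in diestrus. Its main loop joins the promoter to an anchor beside Gipc2 over 260 kb in estrus and 250 kb in diestrus. This loop held 267 contacts in estrus (236 to 301) and 341 in diestrus (306 to 379), at 5.29 and 6.76 times the expected number. The centred log2 ratio was -0.37 (-0.60 to -0.13), between neighbouring bins. The 2 diestrus loops of Ptgfr without a counterpart, of 60 kb and 160 kb, had strengths of 2.03 and 2.33. When only the strongest diestrus loops were kept, as many as estrus had, Ptgfr had 2 loops in each stage.

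Ptger3, the prostaglandin E receptor EP3, had 4 loops in estrus and 3 in diestrus, each running downstream from the promoter. The 150 kb loop was the strongest at a receptor gene, with 367 contacts at 9.11 times the expected number in estrus and 406 contacts at 8.57 times in diestrus, and 4.29% of estrus loops and 4.68% of diestrus loops with at least 20 contacts were as strong. Ednra, the endothelin A receptor, had 3 loops in each stage, of which 1 was paired. This 280 kb loop upstream of Ednra held 214 contacts in estrus and 287 in diestrus, at 3.08 and 3.16 times the expected number. The estrus loops without a counterpart ran 100 kb and 200 kb upstream, and the diestrus ones ran 90 kb downstream and 190 kb upstream. The 90 kb diestrus loop of Ednra was the strongest of these 4, with 296 contacts at 2.95 times the expected number.

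Channels and calcium handling genes, 6 in all, had 23 loops in estrus and 21 in diestrus. Gja1 encodes connexin 43, the gap junction protein that couples myometrial cells, and lies at 56377300 to 56390419 on chromosome 10. It had 8 loops in estrus and 6 in diestrus, and each ran downstream into a region with no protein-coding gene end at the far anchor. The bin with the promoter, at 56370001 to 56380000, held 7 loops in estrus and 6 in diestrus. Of all anchors, 0.880% in estrus held at least 7, and 2.84% in diestrus held at least 6.

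Gja1 had the strongest loops of the 36 genes. The 630 kb loop held 716 contacts in estrus (665 to 770.4) and 778 in diestrus (724 to 835), at 13.1 and 13.5 times the expected number. Only 0.962% of estrus loops and 0.727% of diestrus loops with at least 20 contacts were as strong. The 810 kb loop of Gja1 held 424 contacts in estrus and 421 in diestrus, at 11.5 and 11.6 times. The 940 kb loop held 329 contacts in estrus and 388 in diestrus, at 8.71 and 9.01 times. The centred log2 ratios of these 3 loops were -0.06, -0.04 and -0.06, each with an interval that includes 0. The 2 estrus loops of Gja1 without a counterpart, of 310 kb and 470 kb, had 95 and 131 contacts at 2.31 and 3.17 times the expected number. The diestrus loop without a counterpart, of 410 kb, had 155 contacts at 2.90 times.

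The largest strength ratio among the members was at the longest Gja1 loop. In estrus it spanned 1070 kb with 181 contacts (156 to 209) and a strength of 4.84. The diestrus counterpart spanned 1080 kb with 211 contacts (183 to 241) at 8.17 times, a centred log2 ratio of -0.77 (-1.07 to -0.48). The diestrus loop started in the neighbouring bin, 56360001 to 56370000, over 5 kb from the gene. Expected contacts were 37.4 in estrus and 25.8 in diestrus, so the positions compared differ in background as well. With gene ends within 10 kb, which takes in this loop, Gja1 had 8 loops in estrus and 7 in diestrus.

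The promoter of Gja1 lies in the bin at 56370001 to 56380000, the anchor of 7 of its 8 estrus loops and of all 6 diestrus loops. Among 30 members with a window, 4 (13.3%) held the AP-1 site, TGANTCA, a motif that is its own reverse complement. The share was 8.97% over all genes with a window, which are not limited to protein-coding genes. This motif was chosen after the loops were seen. The stretch up to the start of Gja1 is shown because it is the promoter at the strongest loops, with the site in capitals.
Gja1, chr10:56377241-56377299, plus strand: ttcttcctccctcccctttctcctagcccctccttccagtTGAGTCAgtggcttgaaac
The site begins 19 bases before the annotated start.

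**Figure D2:**
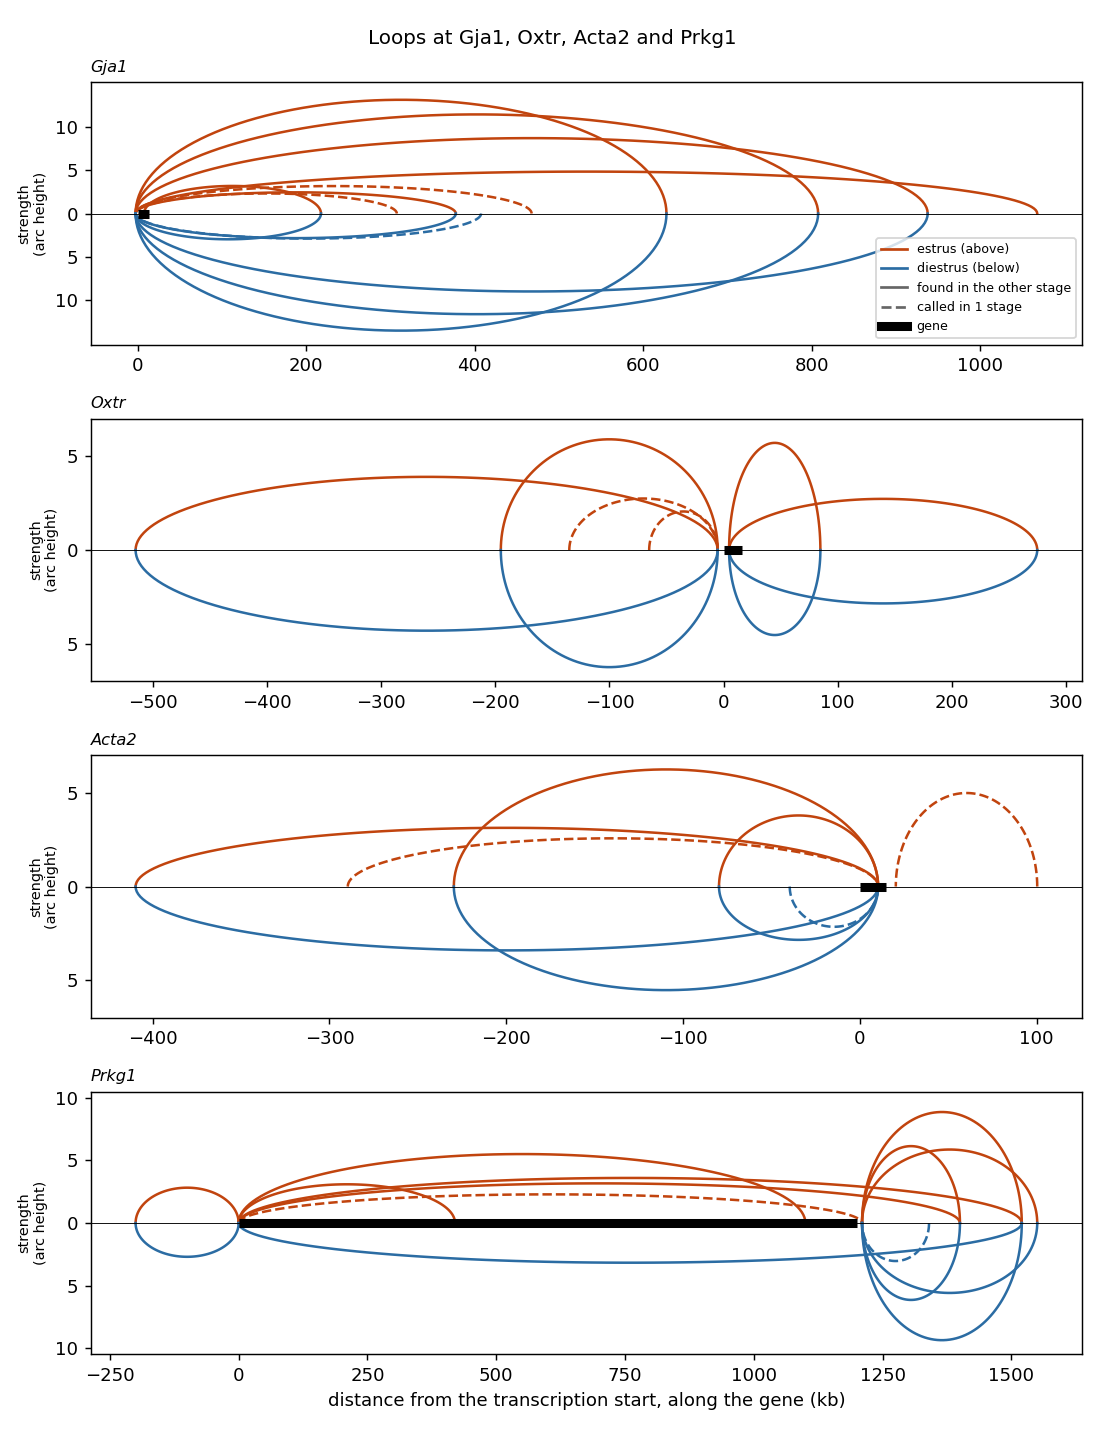
Loops at Gja1, Oxtr, Acta2 and Prkg1 as arcs over the distance from the transcription start, counted along the direction of the gene in kb, with the arc height as strength (contacts over the donut expectation). Estrus arcs lie above the line and diestrus arcs below it, dashed arcs were called in 1 stage, and the black bar is the gene. The 3 tallest Gja1 arcs, up to 13.1 in estrus and 13.5 in diestrus, stand at the same positions in both stages, and a solid arc without a mirror image has its counterpart beyond 5 kb from the gene.

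Kcnma1 encodes the large-conductance calcium-activated potassium channel. It had 4 loops in estrus and 5 in diestrus, and all joined bins of the gene itself. From the promoter, 4 loops in each stage ran 100 to 420 kb into the gene. The longest held 291 contacts in estrus (259 to 326) and 398 in diestrus (359.9 to 439), at 8.38 and 9.65 times the expected number, a centred log2 ratio of -0.22 whose interval includes 0. The Kcnma1 loop of 210 kb had a strength of 6.52 in estrus and 6.36 in diestrus. Cacna1c, the pore subunit of the L-type calcium channel, had 2 loops in estrus and 1 in diestrus within the gene. The paired loop of 60 kb held 257 contacts in estrus and 217 in diestrus, at 3.003 and 2.47 times the expected number, a ratio of 0.26 with an interval that includes 0.

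Itpr1, the receptor through which calcium leaves internal stores, had 3 loops in estrus and 1 in diestrus, or 4 and 3 with gene ends within 10 kb. The paired loop of 90 kb was weaker in estrus, with 258 contacts (227 to 291) at 1.82 times the expected number against 359 contacts (323 to 398) at 2.24 times in diestrus. Its centred log2 ratio was -0.32 (-0.55 to -0.08). The other estrus loops of Itpr1, of 110 kb and 130 kb, had strengths of 2.00 and 1.92, all below the median of the estrus list. Pln, which encodes phospholamban, an inhibitor of the calcium pump of the sarcoplasmic reticulum, had 4 loops in estrus and 5 in diestrus. Its 160 kb downstream loop held 741 contacts in estrus and 756 in diestrus, at 5.77 and 5.28 times the expected number. Atp2b4, a calcium pump of the plasma membrane, had 2 loops in estrus and 3 in diestrus at strengths of 2.12 to 3.16 over both stages.

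The 6 kinase, phosphatase and cyclic nucleotide genes had 18 loops in estrus and 15 in diestrus. Mylk, the myosin light chain kinase gene, had 0 loops in estrus and 2 in diestrus, both from the annotated 5′ end into the gene body. They held 156 contacts (132 to 182) over 120 kb and 108 contacts (88.6 to 130.4) over 150 kb, at 2.30 and 2.81 times the expected number. The nearest estrus loop was 70 kb away. No promoter of Mylk with a window lay within 5 kb of the anchor at this 5′ end. Counting anchors anywhere in the gene body gave Mylk 2 loops in estrus and 5 in diestrus.

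Prkg1 encodes the cyclic GMP-dependent kinase and spans 30564487 to 31765268 on chromosome 19. It had 9 loops in estrus and 6 in diestrus. Near its 3′ end, where the anchor is shared with the Wnt inhibitor gene Dkk1, 3 loops were paired. The strongest of these, 310 kb to Mbl2, held 380 contacts in estrus and 406 in diestrus at 8.87 and 9.35 times the expected number. At the promoter there were 6 loops in estrus and 2 in diestrus. Of the estrus loops there, 3 had a diestrus counterpart at a bin more than 5 kb from the gene end, and they are counted in estrus alone. The estrus loop without a counterpart joined both ends of the gene over 1210 kb, with 51 contacts (38.0 to 67.1) at 2.29 times the expected number. The largest of the 4 q-values of this loop was 0.0491. Counting anchors anywhere in the gene turned the order, to 18 loops in estrus and 20 in diestrus.

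Pde5a, the phosphodiesterase that breaks down cyclic GMP, had 6 loops in estrus and 4 in diestrus. All 4 diestrus loops had a counterpart and left from the promoter side. The 170 kb loop of Pde5a to Fabp2 had a strength of 4.33 in estrus and 3.45 in diestrus, a ratio of 0.31 with an interval that includes 0. Both further estrus loops left from the 3′ end, over 50 kb to the same anchor and over 250 kb, with 258 and 83 contacts at 2.49 and 2.73 times the expected number. Ppp1r12a, the targeting subunit of myosin phosphatase, had 2 loops in each stage. Its promoter loop of 230 kb held 346 contacts in estrus (310.5 to 384) and 489 in diestrus (447 to 534), at 3.42 and 3.96 times, a centred log2 ratio of -0.23 (-0.43 to -0.03).

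Over all members, 80 pairs of loops were compared, 65 of them at identical bins, and 5 with a loop of 1 stage beyond 5 kb from the gene. The median centred log2 ratio was -0.05 (-0.09 to 0.03, an interval over loops as if they were independent draws), and 34 pairs were stronger in estrus and 46 in diestrus. By definition the median over all 19399 pairs was 0.00. The SD over loops was 0.19 among the members and 0.26 over all pairs. The SDs were not adjusted for contacts, whose median at member loops was 191 in estrus and 223 in diestrus. Over all loops it was 125 in each stage. Past 1.5-fold there were 0 member pairs in estrus (1.64% of all pairs) and 1 in diestrus, that of Gja1 (1.56% of all pairs). The counting interval lay above 0 for 3 member pairs (6.36% of all pairs), at Acta2, Oxtr and Synpo2. It lay below 0 for 5 member pairs (6.98% of all pairs), at Gja1, Itpr1, Myocd, Ppp1r12a and Ptgfr. These shares of the members, 3.75% and 6.25%, were no higher than those of all pairs.

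**Figure D3:**
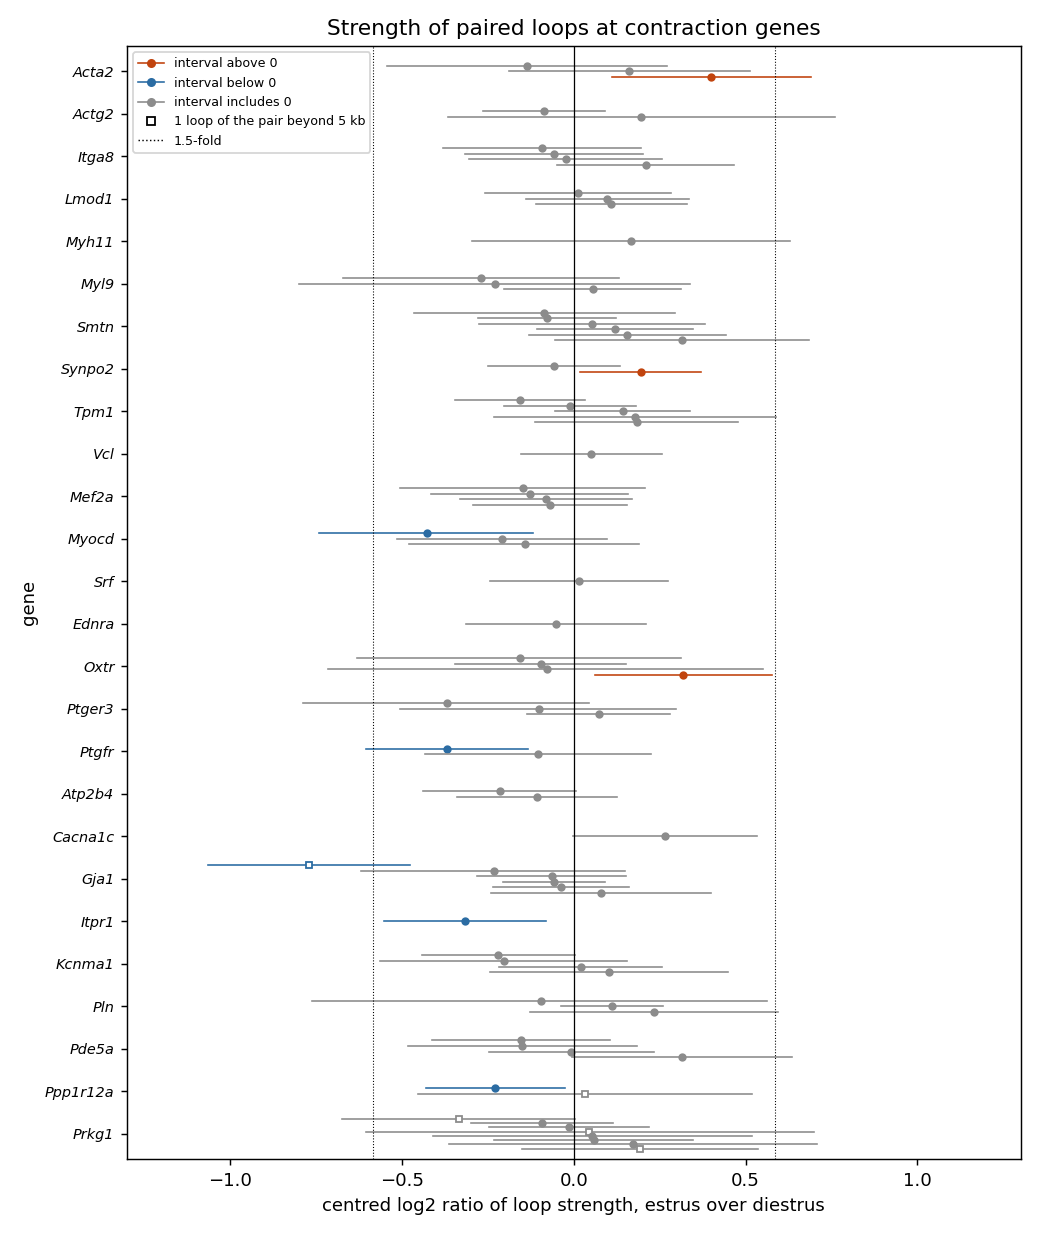
Centred log2 ratio of loop strength, estrus over diestrus (horizontal axis), for the pairs of each gene reported here (vertical axis), with lines for 95% counting intervals and dotted lines at 1.5-fold. Coloured points have an interval on 1 side of 0, which holds for 3 pairs above and 5 below. Open squares mark the 5 pairs in which 1 loop lies beyond 5 kb from the gene, among them the Gja1 pair at -0.77.

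**Figure D4:**
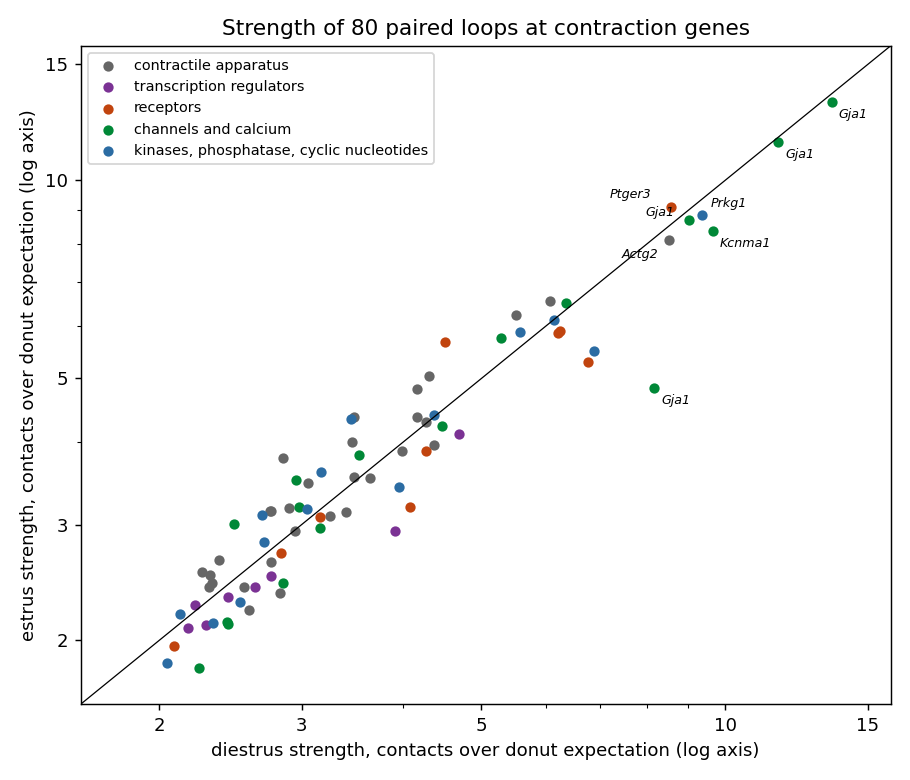
Strength of the 80 paired loops in estrus (vertical log axis) against diestrus (horizontal log axis), as contacts over the donut expectation, coloured by the role of the gene, with the line of equal strength. Gja1 holds the strongest points, at 13.1 in estrus and 13.5 in diestrus, and most pairs lie close to the line.

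Of the estrus loops of the members, 82 of 101 or 81.2% were found in diestrus (72.2% to 88.3%, Clopper-Pearson), against 82.1% of the loops at any protein-coding gene. Of the diestrus loops, 75 of 95 or 78.9% were found in estrus (69.4% to 86.6%), against 78.0%. Both intervals treat loops as independent draws, though many share an anchor. Loops called in 1 stage were weak at the members, with a median strength of 2.31 for the 19 in estrus and 2.32 for the 20 in diestrus. The loops found in both had medians of 3.19 in estrus and 3.25 in diestrus. Over all loops, those called in 1 stage had medians of 2.57 in estrus and 2.56 in diestrus. Those found in both had 3.74 and 3.68. The strongest member loop called in estrus alone was the Acta2 loop of 4.98, which left from a bin outside the gene. In diestrus alone it was a Pln loop of 810 kb, with 34 contacts (23.5 to 47.5) at 6.56 times the expected number.

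The far anchors of the members held an end of another protein-coding gene less often than those of protein-coding genes at large. The share was 27.7% in estrus and 27.4% in diestrus, against 48.4% and 48.4% over all gene and loop combinations. Within the gene itself lay 18.8% of the member loops in estrus and 18.9% in diestrus, against 6.46% and 6.44%. The members are long, with a median gene length of 85.6 kb against 17.3 kb over all protein-coding genes. The promoter lay within 5 kb of the gene's anchor for 70 of 90 estrus loops and 64 of 87 diestrus loops at the genes with a promoter window. Member loops had a median length of 190 kb in estrus and 170 kb in diestrus, against 200 kb and 210 kb at all protein-coding genes, and median strengths of 3.13 and 2.95, against 3.35 and 3.26.

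Another 90 genes of the same pathways were counted as a second list. Of these, 16 had more loops in estrus, 27 had more in diestrus, 35 had equal numbers and 12 had none. Of the 78 with a loop, 20.5% had more in estrus and 34.6% more in diestrus, against 25.6% and 31.5% of all protein-coding genes. At least 2 more loops were found at 2 genes in estrus (2.56%, against 4.29% of all genes), Ptger1 and Tead1, and at 8 in diestrus (10.3%, against 7.11% of all genes). These shares lay near those of all genes. Chrm2 and Chrm3, the muscarinic acetylcholine receptors of smooth muscle, had 2 and 6 loops in estrus, against 6 and 9 in diestrus. Gata6, a transcription factor of smooth muscle, had 5 loops in estrus and 8 in diestrus. The calcium pump and exchanger genes Atp2a2 and Slc8a1 each had 0 loops in estrus and 2 in diestrus. Further contractile and adhesion genes had 41 loops in estrus and 40 in diestrus, channels 28 and 36, receptors and signal transduction 64 and 71, and transcription factors 35 and 42. Markers of other cell types had 31 loops in estrus and 36 in diestrus for stroma, 2 and 3 for epithelium, 4 and 9 for endothelium and 5 and 4 for immune cells. Their part in the values of the members was not tested.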

How the data were processed

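Per the labels' protocols, an Arima HiC kit was used for the libraries. The submitters' processing notes name Juicer and mm10. For the aligner, versions and caller settings, nothing is given in the sources used here. Each deposited list holds 1 loop per line in the column layout of HiCCUPS, Juicer's loop caller, per the file headers. Contacts and merged pixels are raw counts made by the authors. The expected contacts of 4 neighbourhoods are a signal that the authors' caller computed, and its q-values, as deposited, reach 0.0991 in estrus and 0.0955 in diestrus. Anchor positions are of another kind (other: bases), per the file headers, and are given 1-based. Contacts at listed loops sum to 4153485 in estrus and 4533525 in diestrus, and the full depth is not used here. A position without a listed loop is not one without contacts.

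From these lists, loops were assigned to genes, matched, paired and compared with Python 3.11.15, numpy 2.4.6, pandas 2.3.3 and scipy 1.17.1, and the steps were tested on simulated data. Gene positions and promoters came from RefSeq tables of GRCm38.p6, the assembly that mm10 names, and all 36 symbols matched. Intervals are exact Poisson for contacts, Clopper-Pearson for shares and exact conditional for ratios. Reads without molecular identifiers are not independent molecules. Members described loop by loop had a difference of at least 2 loops, a pair past 1.5-fold, most loops or the strongest loops. Others were added as examples of their role after their values were seen. The members and lists were chosen with earlier results of these data known. In all, 10 other settings were tried. Some members enter the counts of the whole list and of their role, and their own results are not reported here.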

Additional observations from a re-analysis of the deposited data

How the results depend on the processing

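Under 5 other settings of the assignment and the lists, and 5 of matching, expectation and centring, the number of loops moved past 1.5-fold when anchors anywhere in a gene body were counted, to 175 in estrus and 188 in diestrus, which turned the order of the stages. Gene ends within 10 kb gave 113 in estrus and 113 in diestrus, and q-values at most 0.01 gave 93 and 93, so the excess of the estrus list was lost there as well. With identical bins required, 64.4% of estrus loops were found in diestrus and 68.4% of diestrus loops in estrus. The other 39 values for the whole list stayed within 1.5 times the main count or inside the 95% interval of the main value. The median strength ratio ranged from -0.05 to 0.01 on the log2 scale, and was above 0 only with anchors anywhere in a gene body. Per gene, Prkg1 turned to a difference of -2 loops in that setting. Of the 9 genes that differed by at least 2 loops, Mylk and Oxtr did so under all 5 list settings, while Actg2 and Ptgfr fell to 0 under at least 1. No paired analysis was possible because each stage has 1 library.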

Other observations

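Counting anchors anywhere in a gene brings in contacts within the gene bodies, and it shows members on both sides. Kcnma1, the potassium channel gene, had 23 loops in estrus and 33 in diestrus, the largest such difference among the 36 genes. Mef2c had 8 in estrus and 11 in diestrus, Ppp1r12a 2 and 5, and Myocd 4 and 6. In the other direction, the calcium channel gene Cacna1c had 10 in estrus and 7 in diestrus, and Synpo2 had 12 and 9. Neither these numbers nor their differences have a replicate check.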
